A study of Mus musculus with 12 samples.

Results

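The genes described here are those that encode ubiquitin-conjugating (E2) enzymes and their close relatives in mouse embryos. They were taken as every row of the deposited count table whose symbol begins with Ube2 and a further letter, leaving out rows named as pseudogenes. This gave 39 genes of the 36255 in the table. All 39 were found in the GENCODE M21 annotation, where 37 are protein-coding and Ube2d4 and Ube2nl are processed pseudogenes despite their names. Ube2cbp, also named Ube3d, carries an E2-binding name and is not itself an E2 by function.

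The table holds RNA-seq counts of poly(A) RNA for 11 libraries, all with embryo as their source. At 9.5 days post coitum (dpc) there were 2 libraries of Skp1aKO, 2 of Skp1acont, 1 of Skp1acont PI, 2 of wt PI and 2 of wt. At 9.0 dpc there were 2 of wt. The labels give no strain, allele, promoter or Cre driver for these groups, do not spell out "cont" or "PI", and leave open whether each library of a group is a different embryo. The p-values therefore measure the spread between libraries, which may be technical. The source is given as embryo while the series text and the growth medium speak of embryonic stem cells and embryoid bodies. Skp1a encodes the protein that links F-box proteins to the cullin of an SCF ligase.

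Ubiquitin is passed from an E1 enzyme to the active-site cysteine of an E2, and from there, with the help of an E3 ligase, to the protein to be marked. The E2 often sets which chain is built: Ube2r2 and Ube2k build degradation signals, Ube2n builds signalling chains with the inactive partner proteins Ube2v1 or Ube2v2, and Ube2c and Ube2s work in sequence on the anaphase-promoting complex (APC/C) in mitosis. A few members carry other tags, with Ube2m and Ube2f passing on NEDD8 and Ube2l6 passing on ISG15.

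Sequences are shown for the genes on which the results below turn. The Ube2c stretch is the 219 bases before its first annotated transcript start at chr2:164769679-164769897 (plus strand, RefSeq table on GRCm38.p6), with CCAAT on either strand in capitals. CCAAT is the letters of the box bound by NF-Y, which many cell-cycle promoters carry. The Ube2s and Ube2v2 stretches are the first 150 coding bases from GENCODE M21 on GRCm38, shown because these genes had the highest and the lowest change against wt and lie far apart in base composition. The Ube2n stretch is the first 90 coding bases, all of which are also present in the processed pseudogene Ube2n-ps1. Capitals mark the start codon in the last 3.
Ube2c: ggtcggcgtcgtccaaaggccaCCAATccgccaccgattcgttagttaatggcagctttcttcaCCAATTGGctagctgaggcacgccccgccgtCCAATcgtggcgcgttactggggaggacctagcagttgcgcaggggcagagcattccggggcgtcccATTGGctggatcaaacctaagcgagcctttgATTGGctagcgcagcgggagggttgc
Ube2s: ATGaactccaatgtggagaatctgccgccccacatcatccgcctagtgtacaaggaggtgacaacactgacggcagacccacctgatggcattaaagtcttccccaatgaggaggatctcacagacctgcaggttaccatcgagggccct
Ube2v2: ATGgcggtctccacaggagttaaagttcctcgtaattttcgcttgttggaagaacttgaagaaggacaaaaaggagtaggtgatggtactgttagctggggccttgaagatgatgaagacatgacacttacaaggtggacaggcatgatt
Ube2n: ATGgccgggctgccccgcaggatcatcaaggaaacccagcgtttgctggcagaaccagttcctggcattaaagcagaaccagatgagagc

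The Ube2c stretch holds 6 CCAAT matches, 3 on each strand, of which a pair overlaps. Of 32851 RefSeq promoter stretches of the same length, 30.9% hold at least 1 match and 0.0274% hold as many or more. Ube2c held the most CCAAT matches among 41 promoter windows of E2 genes, each of 250 bases, with Ube2f and Ube2t next at 3. Other short motifs were scanned as well. The 0.0274% is thus a share for the highest of these windows. A match is a run of letters and says nothing of binding. G and C make up 54% of the printed Ube2s bases and 44.7% of the printed Ube2v2 bases. Over whole transcripts the shares are 58.5% for Ube2s (chr7:4794546-4812590, minus strand) and 35.1% for Ube2v2 (chr16:15552077-15595773, minus strand).

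The libraries with a Skp1a label stood apart from the wt libraries before any E2 gene was compared. Total counts ran from 2320599 to 11607085. The mitochondrial share of counts was 5.98% to 15.8% in the 5 Skp1a-labelled libraries, against 2.44% to 4.01% in the 6 wt libraries, and the share of ribosomal protein genes was 2.97% to 8.29% against 11.6% to 14.8%. The mean level per kb over 1469 olfactory, vomeronasal and taste receptor genes was 4.61 to 14.8 times that of the lowest library in the Skp1a-labelled libraries and 1 to 1.78 times in wt. Skp1acont replicate 2 was the most extreme library in all 3 measures. Skp1a itself measured 198 and 211 CPM (counts scaled to a common library size, with TMM factors) in Skp1aKO, 302 and 103 in Skp1acont, 272 in Skp1acont PI and 927 to 1333 in wt. Its RNA thus did not separate libraries labelled Skp1aKO from those labelled Skp1acont (log2 fold change 0.01 ± 0.51 SE, edgeR quasi-likelihood adjusted p = 1), and a deletion may leave counted RNA, so the label was not checked by it.

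The 39 E2 genes together took 0.168% to 0.481% of the counts. Their summed level was 1922 and 1983 CPM in Skp1aKO, 2831 and 1173 CPM in Skp1acont and 2624 CPM in Skp1acont PI, against 5701 and 5765 CPM in wt PI. In wt without PI it was 5053 and 5462 CPM at 9.5 dpc and 5584 and 6063 CPM at 9.0 dpc. Every Skp1a-labelled library was below every wt library. In bulk samples, fewer cells of a type and less RNA per cell cannot be told apart.

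Per kilobase of transcript, the 5 highest genes took 35.7% to 40.2% of the summed level per kb in the Skp1a-labelled libraries and 42.3% to 46.7% in wt libraries. In wt at 9.5 dpc the order was led by Ube2b, a RAD6 homologue that marks histone H2B and the clamp PCNA, at 195 and 205 CPM per kb, and by Ube2d3, which serves many RING-type E3 ligases, at 193 and 192 CPM per kb. Both Ube2b values lay narrowly above both Ube2d3 values, and the difference was not tested. The order also depends on the transcript length used for each gene. In wt PI the highest gene was Ube2c, at 254 and 257 CPM per kb, as it was in wt at 9.0 dpc, at 211 and 248 CPM per kb. In Skp1aKO the highest was Ube2d3, at 64.0 and 68.7 CPM per kb, followed by Ube2c at 57.6 and 59.98 CPM per kb.

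At the other end, 5 members were at or next to 0 and were not tested in any comparison. Ube2nl had no count in any library, which allows at most 0.258 to 1.29 CPM per library at a limit of 3 counts. Ube2d2b had 0 to 4 counts, Ube2dnl1 and Ube2d4 had 0 to 1 and Ube2dnl2 had 0 to 2. Ube2u, a gene known mainly from testis, had 1 to 13 counts per library and was tested only in the fit of all groups. The other 33 members were tested in every comparison, so that 34 entered the fit of all groups and 33 the fit of the wt libraries.

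**Figure D1:**
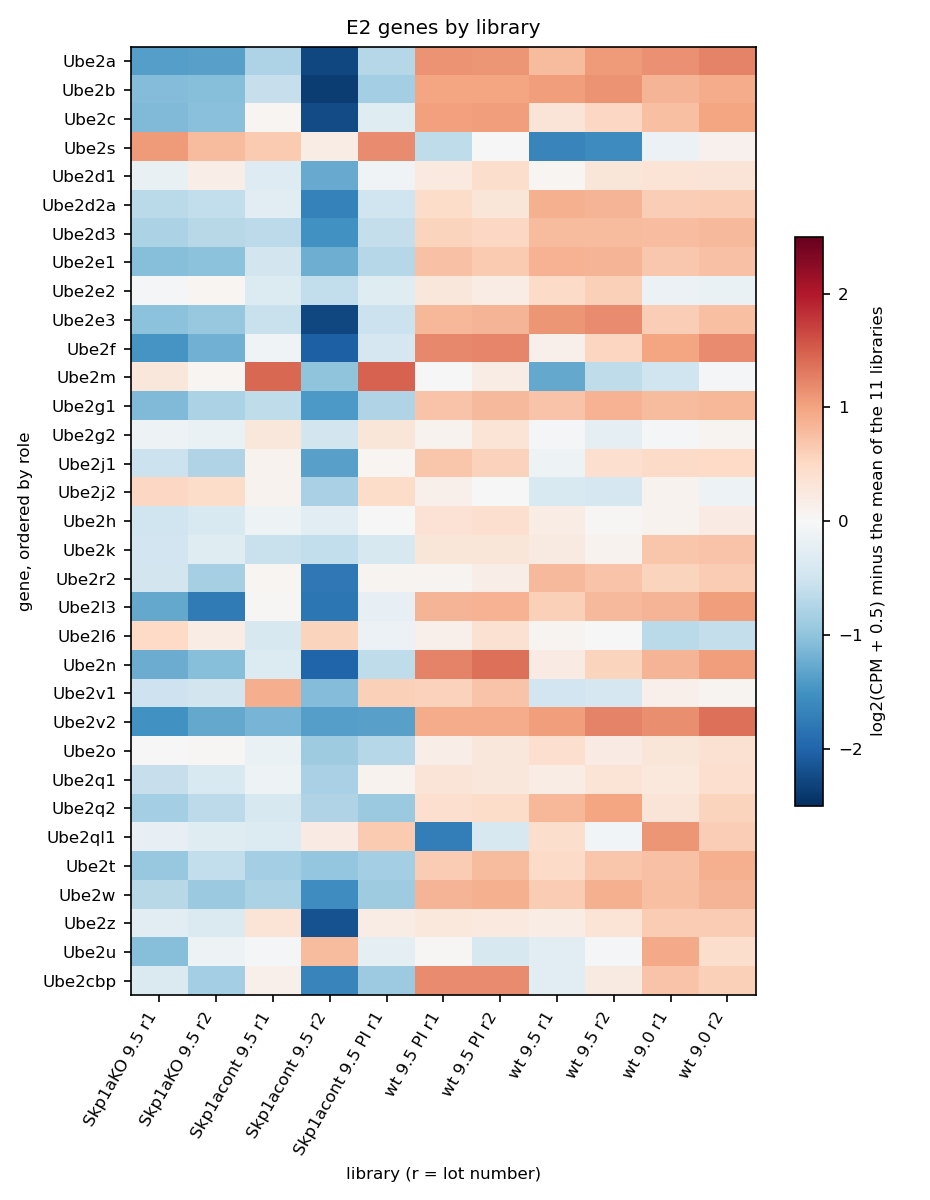
Level of each of 33 tested E2 genes (rows, ordered by role) in each of the 11 libraries (columns). Colour is log2(CPM + 0.5) minus the gene's mean over the libraries, and colours end at 2.5 in either direction. Most rows are blue in the Skp1a-labelled columns and red in the wt columns, while Ube2s runs the other way.

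Between Skp1aKO and Skp1acont at 9.5 dpc, the comparison that bears on the deletion, no E2 gene was called: 0 higher and 0 lower of 34, against 0% of the 18837 genes tested. The edgeR quasi-likelihood test with Benjamini-Hochberg adjustment left the lowest adjusted p over all genes at 0.0823, with 1309 genes and 1 E2 gene at an unadjusted p under 0.05. The DESeq2 Wald test also called 0 E2 genes, where 0.504% of all genes were called (24 higher, 71 lower). The median log2 fold change was -0.05 over the E2 genes and -0.11 over all genes.

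Values of the E2 genes that act with SCF ligases or the APC/C follow. Ube2r2, a CDC34 relative that extends chains on SCF targets, measured 104 and 79.9 CPM in Skp1aKO against 148 and 41.2 CPM in Skp1acont. Ube2m, which passes NEDD8 to most cullins, measured 25.8 and 21.8 CPM in Skp1aKO against 57.8 and 10.2 CPM in Skp1acont. For Ube2r2 and Ube2m both Skp1aKO libraries lay inside the range of the Skp1acont pair, as they did for Ube2f, Ube2d2a, Ube2d3 and Ube2c. Above both Skp1acont libraries lay Ube2d1, at 37.3 and 47.5 CPM in Skp1aKO against 33.9 and 17.5 CPM. Its log2 fold change was 0.71 ± 0.34 SE (adjusted p = 0.753, edgeR). So did Ube2s, which acts with the APC/C, at 67.6 and 55.9 CPM against 50.8 and 36.7 CPM.
Ube2j2, which is anchored in the endoplasmic reticulum (ER), was the E2 gene with an unadjusted p under 0.05, and both Skp1aKO libraries were above both Skp1acont libraries. It measured 84.5 and 81.4 CPM in Skp1aKO against 62.9 and 33.4 CPM in Skp1acont, a log2 fold change of 0.78 ± 0.33 SE (adjusted p = 0.696, edgeR).

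The result turned on which Skp1acont library was kept. Without Skp1acont replicate 1, 19 E2 genes were called higher and 0 lower in Skp1aKO, while of all 18271 genes in that fit 3879 were higher and 1844 lower. Without Skp1acont replicate 2, 1 was called higher and 11 lower, while of all 17019 genes 1663 were higher and 2981 lower. Ube2c, Ube2f, Ube2m, Ube2n, Ube2r2, Ube2v1 and Ube2z were among those called in opposite directions by these 2 fits. Ube2c, for example, had a log2 fold change of 1.15 (adjusted p = 0.000102) in the first and -1.11 (adjusted p = 0.000327) in the second.

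Against wt at 9.5 dpc, 14 of the 34 tested E2 genes fell in Skp1aKO and Ube2s rose, where 18.7% of all genes fell and 17.6% rose. The median log2 fold change was -0.85 over the E2 genes and 0.24 over all genes. The libraries also differed in mitochondrial share, ribosomal share and receptor-gene level, as given above, and the part of these in the result was not tested.

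Ube2s, which extends chains on APC/C targets, measured 67.6 and 55.9 CPM in Skp1aKO, against 9.88 and 10.5 CPM in wt at 9.5 dpc. The log2 fold change was 2.59 ± 0.33 SE (adjusted p = 0.00286, edgeR). The lowest Skp1aKO library was above the highest wt one, and the call held in all 12 alternative fits of this comparison. Ube2s shares 183 bases of exon with the ribosomal protein gene Rpl28 on the opposite strand, and the use of strand in counting is not given in the sources used here. Rpl28 itself measured 68.6 to 186 CPM in the 5 Skp1a-labelled libraries and 144 to 326 CPM in the 6 wt libraries.
Ube2c, which starts the chains that Ube2s extends, measured 126 and 131 CPM in Skp1aKO against 340 and 388 CPM in wt at 9.5 dpc. The groups did not overlap, but the log2 fold change of -1.50 ± 0.62 SE missed the threshold (adjusted p = 0.0773, edgeR).

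Ube2v2, the partner of Ube2n in building signalling chains, measured 91.1 and 107 CPM in Skp1aKO against 534 and 615 CPM in wt at 9.5 dpc. Its log2 fold change of -2.54 ± 0.38 SE (adjusted p = 0.00389, edgeR) was the lowest of the family. Ube2n measured 98.8 and 111 CPM in Skp1aKO against 267 and 344 CPM in wt, a log2 fold change of -1.54 ± 0.52 SE (adjusted p = 0.0434). The other partner, Ube2v1, measured 68.7 and 72.4 CPM in Skp1aKO against 70.6 and 73.6 CPM in wt, a log2 fold change of -0.03 ± 0.53 SE (adjusted p = 0.966). Its sign turned under scaling by library totals (log2 fold change 0.77). Ube2v1 shares 58.0% of its 50-base stretches with other genes, chiefly the read-through gene Gm20431, so its counts are uncertain.

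The RAD6 pair fell together. Ube2a measured 20.5 and 20.9 CPM in Skp1aKO against 94.4 and 113 CPM in wt at 9.5 dpc, a log2 fold change of -2.32 ± 0.45 SE (adjusted p = 0.00777, edgeR). Ube2b measured 79.2 and 80.8 CPM in Skp1aKO against 350 and 368 CPM in wt, a log2 fold change of -2.17 ± 0.53 SE (adjusted p = 0.0163). Both genes were about as far below wt as each other.

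Of the broadly used UBE2D enzymes, Ube2d3 and Ube2d2a fell and Ube2d1 was not called. Ube2d3 measured 245 and 263 CPM in Skp1aKO against 739 and 735 CPM in wt, a log2 fold change of -1.54 ± 0.42 SE (adjusted p = 0.0223, edgeR). Ube2d2a measured 137 and 142 CPM in Skp1aKO against 404 and 395 CPM in wt, a log2 fold change of -1.52 ± 0.47 SE (adjusted p = 0.0325). Ube2d1 measured 37.3 and 47.5 CPM in Skp1aKO against 43.5 and 52.0 CPM in wt, so that the groups overlapped (log2 fold change -0.17 ± 0.34 SE, adjusted p = 0.681).
Of the related UBE2E enzymes, which have an added amino-terminal extension, Ube2e3 and Ube2e1 fell. Ube2e3 measured 81.9 and 87.2 CPM in Skp1aKO against 361 and 383 CPM in wt (log2 fold change -2.14 ± 0.52 SE, adjusted p = 0.0158). Ube2e1 measured 64.4 and 66.9 CPM in Skp1aKO against 248 and 243 CPM in wt (log2 fold change -1.90 ± 0.37 SE, adjusted p = 0.00822). Ube2e2 measured 15.1 and 15.8 CPM in Skp1aKO against 21.6 and 23.6 CPM in wt, below both wt libraries but not called (log2 fold change -0.55 ± 0.24 SE, adjusted p = 0.0943).

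Among the enzymes that act with cullin ligases, the NEDD8 carriers went apart. Ube2f, which serves cullin 5 through Rnf7, measured 17.7 and 21.6 CPM in Skp1aKO against 54.5 and 72.8 CPM in wt at 9.5 dpc, a log2 fold change of -1.70 ± 0.53 SE (adjusted p = 0.0338, edgeR). Ube2m measured 25.8 and 21.8 CPM in Skp1aKO against 8.42 and 13.3 CPM in wt, without overlap but short of the threshold (log2 fold change 1.10 ± 0.62 SE, adjusted p = 0.172). Ube2r2 measured 104 and 79.9 CPM in Skp1aKO against 252 and 235 CPM in wt, also short of it (log2 fold change -1.41 ± 0.53 SE, adjusted p = 0.0588).

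Ube2l3, the E2 of HECT and RBR ligases such as Itch and Arih1, measured 84.1 and 60.1 CPM in Skp1aKO against 310 and 360 CPM in wt at 9.5 dpc (log2 fold change -2.22 ± 0.56 SE, adjusted p = 0.0182, edgeR). Ube2g1 measured 44.2 and 54.8 CPM in Skp1aKO against 158 and 174 CPM in wt (log2 fold change -1.74 ± 0.36 SE, adjusted p = 0.00984). Ube2q2 measured 11.7 and 13.4 CPM in Skp1aKO against 38.4 and 43.1 CPM in wt (log2 fold change -1.70 ± 0.26 SE, adjusted p = 0.00411). In all 3 genes every Skp1aKO library was below both wt libraries.
The remaining genes that fell were Ube2w, which marks protein amino termini, with a log2 fold change of -1.60, and Ube2t, the E2 of the Fanconi anaemia pathway, with -1.38. Ube2j2 measured 84.5 and 81.4 CPM in Skp1aKO against 45.4 and 43.8 CPM in wt and was not called (log2 fold change 0.90 ± 0.34 SE, adjusted p = 0.0593).

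**Figure D2:**
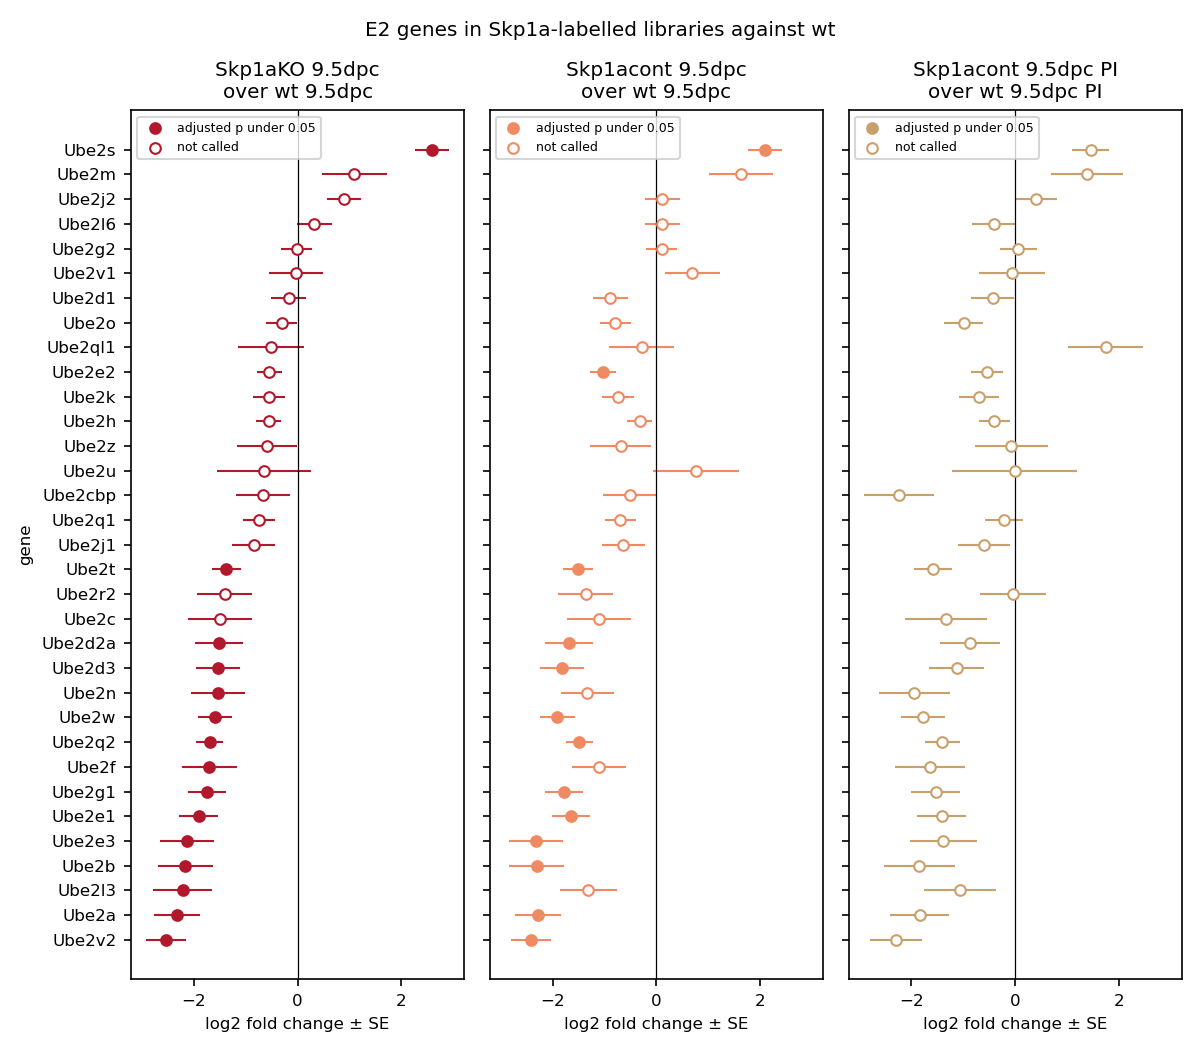
Log2 fold change ± SE of 33 tested E2 genes in 3 comparisons of Skp1a-labelled with wt libraries, from edgeR fits. Filled points have an adjusted p under 0.05. Ube2s stands highest in the first 2 panels, at 2.59 and 2.10, and Ube2v2 lies at -2.54, -2.42 and -2.29.

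These calls leaned on few libraries and on the scaling. Leaving out 1 library of either group cost many of these calls, and far fewer of all genes were called then too. Ube2s kept its call in all 5 fits that left out 1 library, that of Skp1acont replicate 2 included. No gene that fell did so. Ube2b, Ube2d2a, Ube2d3, Ube2e3, Ube2f, Ube2l3 and Ube2n each kept their calls in 1 of the 5. Without Skp1aKO replicate 1, the median log2 fold change was -0.95 over the E2 genes and 0.16 over all genes. Without Skp1aKO replicate 2 these medians were -1.09 and 0.19. They were -1.035 and 0.245 without wt replicate 1, and -0.61 and 0.36 without wt replicate 2. More genes, E2 or other, were called without Skp1acont replicate 2, which enters the fit only through the shared spread. The medians were then -0.73 and 0.17. With library totals in place of TMM, 9 fell and 5 rose, while over all genes 6804 rose and 1400 fell, against 3322 and 3529 under TMM. The median of all genes then moved to 1.03 and that of the E2 genes to -0.05. Relative to the median of all genes the E2 genes lay at -1.08 whether libraries were scaled by TMM, by DESeq2's factors or by totals. A change of scaling moves all genes of a comparison by nearly the same amount. The likeness of these values was thus fixed in advance and is no check on the result.

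Skp1acont at 9.5 dpc was set against the same stage of wt, and this shares its wt libraries with the one above. Of 34 E2 genes 12 fell and 1 rose, where 17.1% of all genes fell and 19.3% rose, and the median log2 fold change was -0.96 over the E2 genes and 0.34 over all genes. Ube2s measured 50.8 and 36.7 CPM in Skp1acont against 9.88 and 10.5 CPM in wt, a log2 fold change of 2.10 ± 0.33 SE (adjusted p = 0.00729, edgeR). Ube2v2 measured 116 and 99.3 CPM in Skp1acont against 534 and 615 CPM in wt (log2 fold change -2.42 ± 0.38 SE, adjusted p = 0.00729).
The other genes that fell were Ube2e3 at -2.33, Ube2b at -2.31, Ube2a at -2.28, Ube2w at -1.91, Ube2d3 at -1.82, Ube2g1 at -1.79, Ube2d2a at -1.69, Ube2e1 at -1.65, Ube2t at -1.51, Ube2q2 at -1.49 and Ube2e2 at -1.03. Ube2w measured 29.2 and 17.2 CPM in Skp1acont against 79.8 and 94.8 CPM in wt (log2 fold change -1.91 ± 0.33 SE, adjusted p = 0.00794). All 12 genes that fell were lower in Skp1acont replicate 2 than in replicate 1, as Ube2b was at 113 and 32.2 CPM in Skp1acont against 350 and 368 CPM in wt, and Ube2e3 at 114 and 34.3 CPM against 361 and 383 CPM.
Both call counts were 0 in a fit of only these 2 groups, where 0 of all 13278 genes were called. With 1 wt library left out, few or no E2 genes were called, and far fewer of all genes. Without Skp1acont replicate 1, more of both were called. The median log2 fold change of the E2 genes was -0.73 without wt replicate 2, -1.05 without wt replicate 1 and -1.785 without Skp1acont replicate 1. That of all genes was 0.47, 0.34 and 0.21.

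Ube2m measured 57.8 and 10.2 CPM in Skp1acont against 8.42 and 13.3 CPM in wt, and its log2 fold change of 1.63 ± 0.62 SE was not called (adjusted p = 0.0622). The groups overlapped, and only replicate 1 was clearly above wt. Ube2v1, at 187 and 46.3 CPM in Skp1acont against 70.6 and 73.6 CPM in wt, showed the same one-library pattern (log2 fold change 0.70 ± 0.53 SE, adjusted p = 0.295).

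In the PI comparison the lone Skp1acont PI library was set against the 2 wt PI libraries, and its spread was assumed to be like that of the other groups. No E2 gene was called of 34, where 0.441% of all genes were called (0.111% higher, 0.329% lower), and 14 E2 genes and 4637 of all genes had an unadjusted p under 0.05. By the DESeq2 Wald test 1 E2 gene was higher and 11 were lower, where 9.61% of all genes were called. The median of the log2 fold changes was -0.93 over the E2 genes and 0.10 over all genes. Ube2v2 measured 101 CPM in Skp1acont PI against 494 and 497 CPM in wt PI (log2 fold change -2.29 ± 0.50 SE, adjusted p = 0.0583, edgeR). Ube2s measured 73.1 CPM in Skp1acont PI against 20.6 and 32.2 CPM in wt PI (log2 fold change 1.46 ± 0.36 SE, adjusted p = 0.0719). Ube2t measured 26.1 CPM in Skp1acont PI against 73.9 and 82.3 CPM in wt PI (log2 fold change -1.58 ± 0.36 SE, adjusted p = 0.0634). Each Skp1acont PI value lay outside the wt PI pair by more than the pair's own gap. Without Skp1acont replicate 2 in the fit, a library of neither group, many more genes were called, E2 or other. The median log2 fold change was then -0.88 over the E2 genes and 0.14 over all genes.

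Across all 5 Skp1a-labelled and 6 wt libraries, whatever their group, 19 of the 34 E2 genes lay lower in every Skp1a-labelled library than in every wt library, where 21.3% of all genes did, and Ube2s alone lay higher in each, where 21.3% of all genes did. With library totals in place of TMM, 9 were below in every library, where 7.79% of all genes were, and Ube2s alone was above, where 37.3% were. The 9 are Ube2a, Ube2b, Ube2d3, Ube2e1, Ube2e3, Ube2g1, Ube2t, Ube2v2 and Ube2w. Ube2s measured 36.7 to 73.1 CPM in the Skp1a-labelled libraries and 9.88 to 34.9 CPM in wt, so its margin over wt at 9.0 dpc is narrow under TMM.

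Ratios between relatives within a library do not depend on the scaling between libraries. Per length, Ube2s made up 48.7% and 43.0% of the Ube2c and Ube2s sum in Skp1aKO, 24.2% and 53.2% in Skp1acont and 36.9% in Skp1acont PI, against 6.14% and 9.18% in wt PI, 4.89% and 4.57% in wt at 9.5 dpc and 9.98% and 10.2% in wt at 9.0 dpc. Ube2m made up 77.0% to 85.9% of the NEDD8 carriers in the Skp1a-labelled libraries and 36.4% to 43.9% in wt. Ube2v1 made up 49.0% to 76.9% of the Ube2v1 and Ube2v2 sum in the Skp1a-labelled libraries and 19.8% to 40.3% in wt.
In none of these 3 families did the libraries overlap. The same held for Ube2g2, which with Ube2g1 serves ER-associated degradation and cullin ligases, at 39.5% to 47.01% of the pair in the Skp1a-labelled libraries and 16.4% to 23.6% in wt, and for Ube2j2, at 75.0% to 87.6% against 62.3% to 71.5%. The RAD6 pair did overlap, with Ube2a at 21.1% to 26.9% of the pair in the Skp1a-labelled libraries and 21.8% to 29.2% in wt. Other families separated too. Ube2d1 made up 14.2% to 20.9% of its family in the Skp1a-labelled libraries and 7.87% to 13.04% in wt. Ube2e2 and Ube2l6 also lay higher within their families, and Ube2q2 lower, without overlap. Under TMM 21.3% of all genes lay above wt in every Skp1a-labelled library and 21.3% below. The share over other gene pairs was not computed. Such ratios show unequal change and not which partner changed, and they carry no test.

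**Figure D3:**
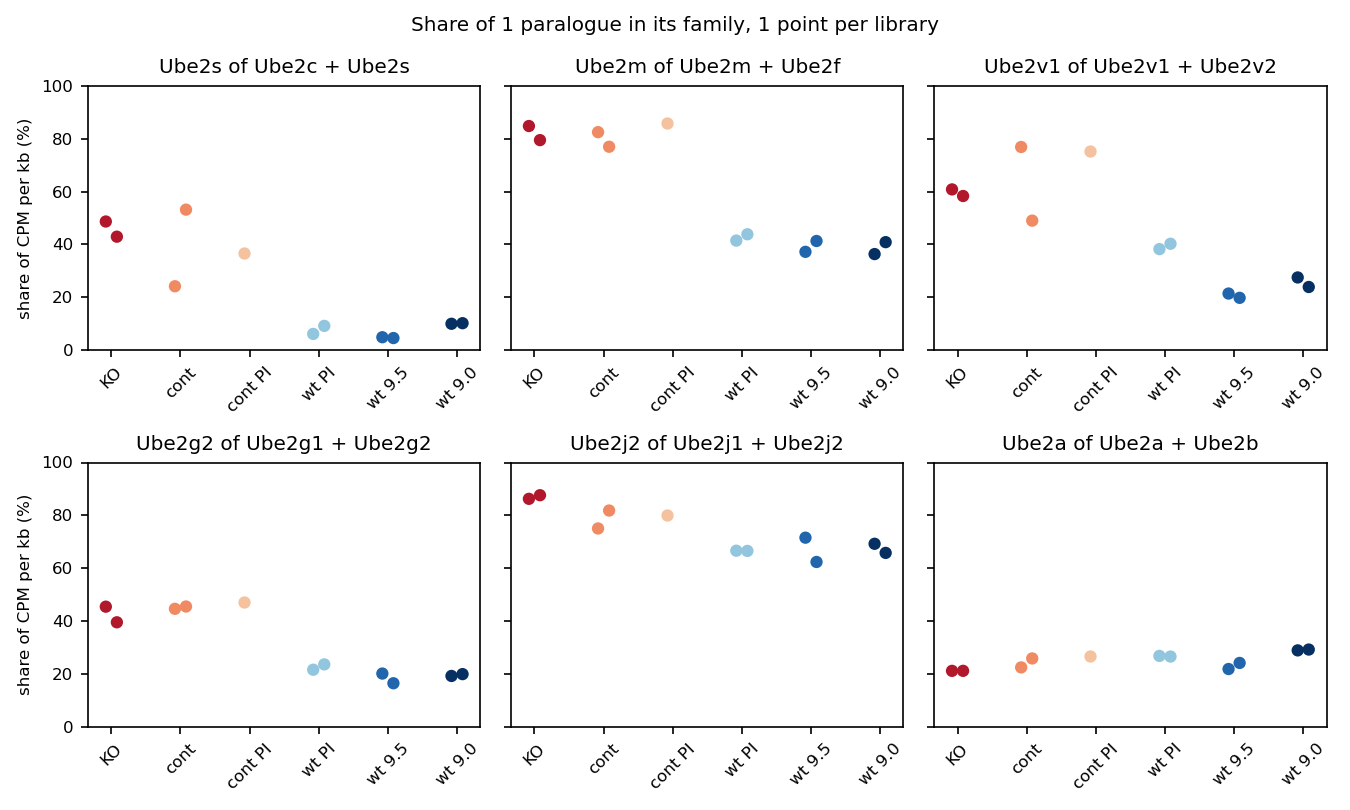
Share of 1 gene in the summed level per kb of its family (y axis, %), with 1 point per library and the groups on the x axis. Ube2s, Ube2m, Ube2v1, Ube2g2 and Ube2j2 lie higher in each of the 5 libraries with a Skp1a label than in the 6 wt libraries, while the shares of Ube2a overlap.

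The E2 genes that fell against wt had a lower GC content than those that did not. In Skp1aKO against wt at 9.5 dpc, the 14 lower genes had a median transcript GC content of 43.4% (35.1% to 47.9%), the uncalled genes 50.8% and Ube2s 58.5%. Across the 34 genes the correlation of log2 fold change with GC content was r = 0.68, and it was 0.70 in Skp1acont against wt and 0.70 in Skp1acont PI against wt PI. Over 16850 genes of the table it was 0.10, 0.14 and 0.28. Taken over coding bases only, the correlations in the E2 genes were 0.50, 0.47 and 0.57. The points share their libraries and their wt controls, so these values are a description, and the part of base composition in the calls was not tested.
The genes with larger shares within their pairs were each the GC-richer of the 2 where transcripts differed, with Ube2m at 63.4%, Ube2v1 at 55.1%, Ube2g2 at 54.6% and Ube2j2 at 50.8%, set against Ube2f at 47.7%, Ube2v2 at 35.1%, Ube2g1 at 40.9% and Ube2j1 at 44.8%. Ube2c, at 55.5%, did not follow the pattern, since it is GC-rich and was not higher than wt in any of these comparisons.

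**Figure D4:**
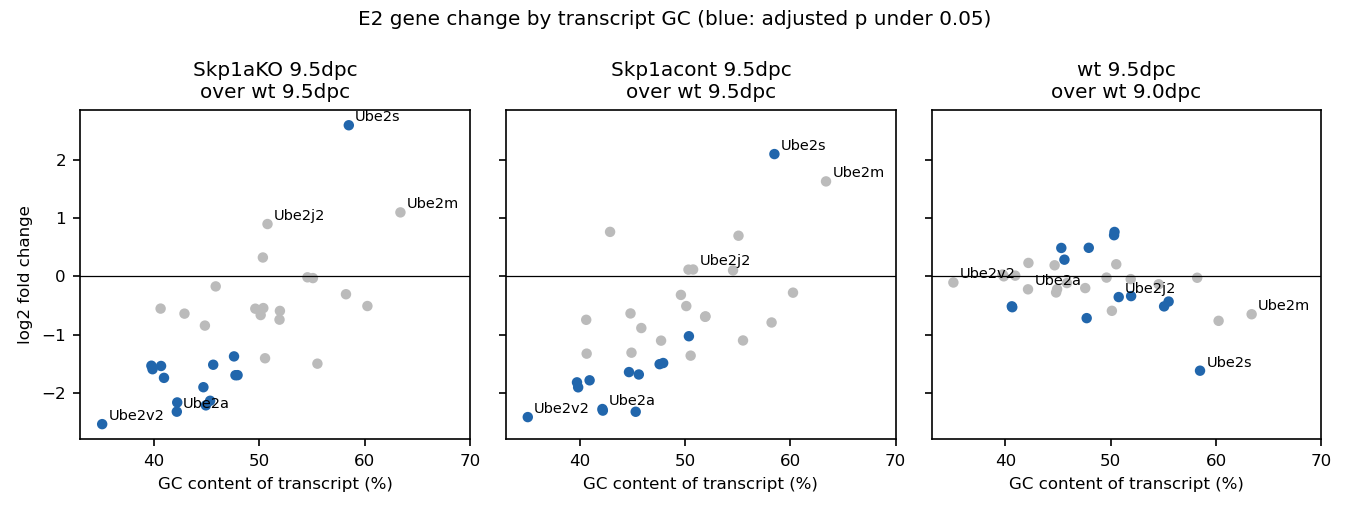
Log2 fold change of tested E2 genes (y axis) by the GC content of its longest annotated coding transcript (x axis, %), in 3 comparisons. Blue points have an adjusted p under 0.05. The points climb with GC in the first 2 panels (r = 0.68 and 0.70 over all tested E2 genes, of which 1 is not drawn) and not in the third (r = -0.36).

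Counts of near-identical copies also differed between Skp1a-labelled and wt libraries. Ube2n-ps1 is 459 bases long and matches a stretch of the Ube2n transcript (chr10:95515145-95545657, plus strand) base for base, so reads cannot tell them apart. Its counts were 0% and 0.396% of those of Ube2n in Skp1aKO, 13.1% and 3.63% in Skp1acont and 6.65% in Skp1acont PI, against 25.6% and 25.2% in wt PI, 15.9% and 16.6% in wt at 9.5 dpc and 19.9% and 23.9% in wt at 9.0 dpc. Gm10705 against Ube2l3 and Gm6361 against Ube2v2 were lower as well, at 0% to 5.57% in the Skp1a-labelled libraries and 12.1% to 28.96% in wt. With these rows added to their parents, the counts of called E2 genes stayed as they were except in Skp1acont over wt, where 13 fell in place of 12.

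Other parts of the ubiquitin system were set beside the E2 genes in Skp1aKO against wt at 9.5 dpc, where 18.7% of all genes fell and 17.6% rose. Of 13 genes for ubiquitin and related modifiers, 7 fell and 0 rose. Of 9 E1 genes, 3 fell, led by Uba3 and Nae1, the subunits of the NEDD8 E1, at -2.39 ± 0.31 SE (adjusted p = 0.00296) and -2.07 ± 0.37 SE (adjusted p = 0.0061). Of 8 tested E2 relatives with other names, 4 fell, led by Ufc1, the E2 of the modifier Ufm1, at -2.37 ± 0.61 SE (adjusted p = 0.0192).

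Among E3 partners in the same comparison, where 18.7% of all genes fell and 17.6% rose, the counts differed by list. Of 11 genes of the SCF core and neddylation, 8 fell, led by Rbx1 (-2.53 ± 0.65 SE, adjusted p = 0.0191, edgeR) and Rnf7 (-2.39 ± 0.64 SE, adjusted p = 0.0216). Of 16 APC/C genes 8 fell, led by Anapc10 (-2.62 ± 0.35 SE, adjusted p = 0.00304). Of 11 CTLH ligase genes, the partners of Ube2h, 6 fell, and of 13 partners of the RAD6, Ube2n and Ube2t enzymes 5 fell, led by Fancl (-1.83 ± 0.28 SE, adjusted p = 0.00394). Of 9 ER-associated degradation genes 2 fell, of 6 SUMO ligases 3 fell and Pias4 rose (1.31 ± 0.40 SE, adjusted p = 0.0313), and of 18 HECT and RBR ligases 3 fell and Rnf31 rose (1.52 ± 0.46 SE, adjusted p = 0.0308). None of these lists was tested as a set.
Mitotic genes, in which Ube2c and Ube2s are usually counted, fell in 8 of 15 cases, led by Birc5 (-2.60 ± 0.60 SE, adjusted p = 0.0136), while Plk1 rose (1.40 ± 0.28 SE, adjusted p = 0.00851). Plk1 measured 48.01 and 50.2 CPM in Skp1aKO against 19.8 and 17.5 CPM in wt.

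Marker genes of cell types were counted in the same comparison. Of 10 markers of primitive erythroid cells 7 fell and 0 rose, and their summed level was 922 to 1298 CPM in Skp1aKO, 926 to 6411 CPM in Skp1acont and Skp1acont PI, 9390 to 11855 CPM in wt PI, and in wt without PI 17652 to 23530 CPM at 9.5 dpc and 9275 to 9569 CPM at 9.0 dpc, with no marker at 0. Of 10 neural tube markers 2 rose and 1 fell, with sums of 621 to 623 CPM in Skp1aKO and 765 to 868 CPM in wt at 9.5 dpc. Of 10 mesenchyme markers 2 rose and 4 fell, with sums of 232 to 242 CPM in Skp1aKO and 548 to 606 CPM in wt at 9.5 dpc. Of 8 endothelial markers 1 rose and 4 fell, while their sums were 645 to 1183 CPM in Skp1aKO and 178 to 469 CPM in wt at 9.5 dpc. Pecam1 alone made up most of each sum, at 1154 and 609 CPM in Skp1aKO and 381 and 91.4 CPM in wt. The sums therefore do not stand for the list. Of 6 tested ES cell markers 1 rose, with sums over the list of 17.8 to 25.0 CPM in Skp1aKO, 16.3 to 31.3 CPM in Skp1acont and Skp1acont PI and 6.003 to 7.56 CPM in wt PI, and in wt without PI 4.45 to 9.51 CPM at 9.5 dpc and 13.0 to 37.2 CPM at 9.0 dpc. Of 3 tested placenta and yolk sac markers 1 fell, with sums over the list of 9.25 to 10.03 CPM in Skp1aKO and 35.7 to 184 CPM in wt at 9.5 dpc. The wt sums were nearly all Prl8a2, at 176 and 31.8 CPM in wt and 0.427 and 0.22 CPM in Skp1aKO. The other genes of this list were low in both groups. The part of cell makeup in the E2 results was not tested.

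Among wt embryos the E2 genes were compared in a fit of the 6 wt libraries. Between wt at 9.5 dpc and wt at 9.0 dpc, 5 of 33 rose and 9 fell, where 15% of the 13126 genes tested rose and 16.7% fell. With the lot as a block, 6 rose and 12 fell, where 41.7% of all genes were called. Ube2b, Ube2cbp, Ube2l3 and Ube2m were the E2 genes added. With all 11 libraries in 1 fit, which has a wider spread, 0 rose and 1, Ube2s, fell, where 1.61% of all genes were called. The median log2 fold change was -0.14 over the E2 genes and -0.02 over all genes. The changes were smaller than those against the Skp1a label and the spread between libraries was smaller too, with a biological coefficient of variation of 19.6% against 35.4% in the fit of all groups.

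Ube2s had the largest change. It measured 9.88 and 10.5 CPM in wt at 9.5 dpc against 28.95 and 34.9 CPM in wt at 9.0 dpc (log2 fold change -1.62 ± 0.22 SE, adjusted p = 0.000859, edgeR), and this call held in all 11 alternative fits. Its partner Ube2c measured 340 and 388 CPM in wt at 9.5 dpc against 462 and 543 CPM in wt at 9.0 dpc (log2 fold change -0.43 ± 0.11 SE, adjusted p = 0.0122). Neither gene overlapped between the stages, but Ube2c kept its call in only 2 of the 4 fits that left out 1 library (adjusted p up to 0.135).
The NEDD8 carrier Ube2f measured 54.5 and 72.8 CPM in wt at 9.5 dpc against 99.6 and 115 CPM in wt at 9.0 dpc (log2 fold change -0.72 ± 0.13 SE, adjusted p = 0.00265). It fell in every fit that left out 1 library. Of 12 tested modifier genes 5 fell, among them Nedd8 at -0.63 ± 0.11 SE (adjusted p = 0.00209), and of 9 E1 genes 2 fell, among them Sae1, a subunit of the SUMO E1, at -0.72 ± 0.11 SE (adjusted p = 0.001).

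The chain builders Ube2n, Ube2v1 and Ube2k also fell. Ube2n measured 267 and 344 CPM in wt at 9.5 dpc against 420 and 480 CPM in wt at 9.0 dpc (log2 fold change -0.53 ± 0.12 SE, adjusted p = 0.00995, edgeR). Ube2v1 measured 70.6 and 73.6 CPM in wt at 9.5 dpc against 108 and 103 CPM in wt at 9.0 dpc (log2 fold change -0.52 ± 0.10 SE, adjusted p = 0.00337). Ube2k, which builds degradation signals on its own, measured 138 and 125 CPM in wt at 9.5 dpc against 191 and 193 CPM in wt at 9.0 dpc (log2 fold change -0.52 ± 0.10 SE, adjusted p = 0.00377). Ube2v2, the other partner of Ube2n, did not pass (log2 fold change -0.11 ± 0.11 SE, adjusted p = 0.49).
Ube2j2 and Ube2z, the E2 that takes ubiquitin from Uba6, also fell, with log2 fold changes of -0.36 and -0.34. Neither kept its call in any of the 4 fits that left out 1 library.

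In the other direction, Ube2e2 measured 21.6 and 23.6 CPM in wt at 9.5 dpc against 13.8 and 13.6 CPM in wt at 9.0 dpc (log2 fold change 0.76 ± 0.14 SE, adjusted p = 0.00355, edgeR). Its relative Ube2e3 measured 361 and 383 CPM in wt at 9.5 dpc against 259 and 284 CPM in wt at 9.0 dpc (log2 fold change 0.49 ± 0.09 SE, adjusted p = 0.00368). Ube2l6, the ISG15 carrier, measured 16.5 and 15.8 CPM in wt at 9.5 dpc against 9.65 and 10.3 CPM in wt at 9.0 dpc (log2 fold change 0.70 ± 0.17 SE, adjusted p = 0.0111). None of these overlapped between stages.
Ube2q2 measured 38.4 and 43.1 CPM in wt at 9.5 dpc against 27.2 and 31.9 CPM in wt at 9.0 dpc (log2 fold change 0.49 ± 0.13 SE, adjusted p = 0.0176). Ube2d2a measured 404 and 395 CPM in wt at 9.5 dpc against 334 and 337 CPM in wt at 9.0 dpc (log2 fold change 0.28 ± 0.10 SE, adjusted p = 0.0485), the closest call to the threshold among those that rose. Of the 4 fits that left out 1 library, Ube2n, Ube2l6 and Ube2q2 kept their calls in 2 each and Ube2d2a in 1.

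Of the lists set beside them, 7 of 16 APC/C genes and 3 of 15 mitotic genes fell between the stages, where 16.7% of all genes fell and 15% rose, and Mki67 was the mitotic gene that rose (0.56 ± 0.10 SE, adjusted p = 0.00329). Of the erythroid markers 5 of 10 rose, and of the neural tube markers 7 rose and 1 fell. The part of this shift in cell types was not tested.

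The wt PI libraries at 9.5 dpc differed from wt at 9.5 dpc with 9 E2 genes higher and 4 lower of 33, where 27.9% of all genes were called (15.6% higher, 12.4% lower). With the lot as a block, 12 rose and 5 fell, where 38.9% of all genes were called. Ube2g2, Ube2h, Ube2j1 and Ube2d3 were the E2 genes added. With all 11 libraries in 1 fit, 0 rose and 0 fell, where 0.069% of all genes were called. The median log2 fold change was 0.14 over the E2 genes and 0.01 over all genes. This comparison shares its wt 9.5 dpc libraries with the one between stages, so values that are high or low in that pair enter both.

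Ube2s measured 20.6 and 32.2 CPM in wt PI against 9.88 and 10.5 CPM in wt at 9.5 dpc (log2 fold change 1.39 ± 0.22 SE, adjusted p = 0.00235, edgeR). Ube2c measured 557 and 563 CPM in wt PI against 340 and 388 CPM in wt at 9.5 dpc (log2 fold change 0.61 ± 0.11 SE, adjusted p = 0.00273). Both APC/C enzymes rose without overlap.
Ube2v1 measured 148 and 163 CPM in wt PI against 70.6 and 73.6 CPM in wt at 9.5 dpc (log2 fold change 1.10 ± 0.10 SE, adjusted p = 0.000177). Ube2n measured 547 and 602 CPM in wt PI against 267 and 344 CPM in wt at 9.5 dpc (log2 fold change 0.91 ± 0.13 SE, adjusted p = 0.00095). Ube2v2 did not follow them, at 494 and 497 CPM in wt PI against 534 and 615 CPM in wt at 9.5 dpc (log2 fold change -0.22 ± 0.11 SE, adjusted p = 0.151).

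The carriers of NEDD8 rose as well. Ube2m measured 21.3 and 24.01 CPM in wt PI against 8.42 and 13.3 CPM in wt at 9.5 dpc (log2 fold change 1.00 ± 0.22 SE, adjusted p = 0.00948). Ube2f measured 115 and 118 CPM in wt PI against 54.5 and 72.8 CPM in wt at 9.5 dpc (log2 fold change 0.86 ± 0.13 SE, adjusted p = 0.00137).
Of 12 tested modifier genes 3 rose and 3 fell, and Sumo3 had a log2 fold change of 1.01 ± 0.12 SE (adjusted p = 0.000466). Of 9 E1 genes 1 rose and 1 fell, and the one that rose was Sae1 (log2 fold change 1.14 ± 0.11 SE, adjusted p = 0.000209). Ube2cbp measured 15.8 and 15.8 CPM in wt PI against 5.49 and 7.95 CPM in wt at 9.5 dpc (log2 fold change 1.17 ± 0.20 SE, adjusted p = 0.00271). Ube2j2 also rose, with a log2 fold change of 0.46 (edgeR adjusted p = 0.0171).

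The 4 genes that fell were led by Ube2r2, which measured 149 and 160 CPM in wt PI against 252 and 235 CPM in wt at 9.5 dpc (log2 fold change -0.67 ± 0.10 SE, adjusted p = 0.0014, edgeR). Ube2d2a measured 299 and 269 CPM in wt PI against 404 and 395 CPM in wt at 9.5 dpc (log2 fold change -0.50 ± 0.10 SE, adjusted p = 0.00456). Ube2q2 fell by 0.48 and Ube2e3 by 0.31 on the log2 scale. Ube2q2, Ube2e3 and Ube2j2 each kept their calls in 1 of the 4 fits that left out 1 library.
Of the 16 APC/C genes 9 rose and 3 fell in the same comparison, where 15.6% of all genes rose and 12.4% fell. Of 15 mitotic genes 5 rose and 1 fell, led by Plk1 (1.20 ± 0.14 SE, adjusted p = 0.000379) and Aurka (1.20 ± 0.16 SE, adjusted p = 0.00157). Of 10 neural tube markers 7 fell and 1 rose, and of 10 erythroid markers 4 fell and 0 rose. The part of cell makeup was not tested.

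**Figure D5:**
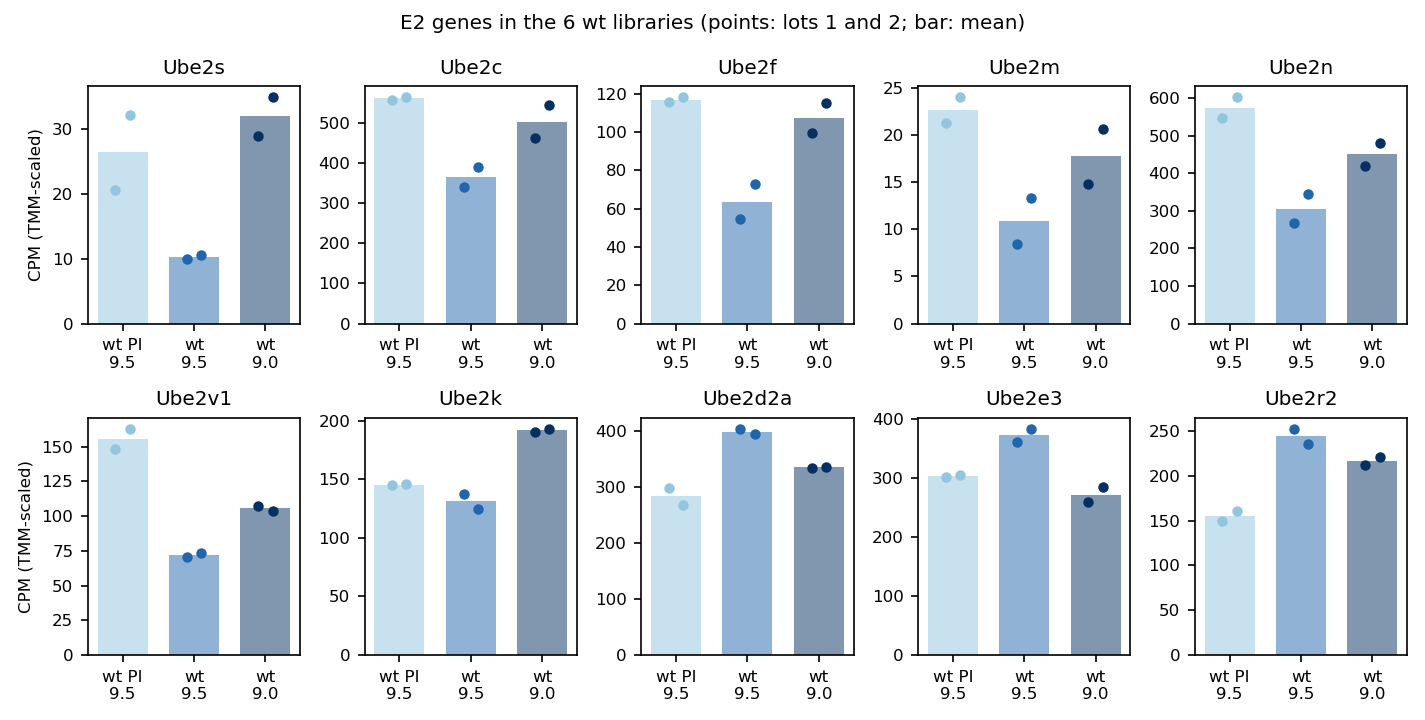
Level of 10 E2 genes (y axis, CPM on TMM-scaled libraries, starting at 0) in the 6 wt libraries, with points for lots 1 and 2 and bars for the mean. Ube2s, Ube2c, Ube2f, Ube2m, Ube2n, Ube2v1 and Ube2k are lowest in wt at 9.5 dpc, while Ube2d2a, Ube2e3 and Ube2r2 are highest there.

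Between wt PI at 9.5 dpc and wt at 9.0 dpc fewer E2 genes were called. Of 33, 2 rose and 4 fell, where 8.6% of all genes rose and 6.99% fell, and the median log2 fold change was 0.05 over the E2 genes and 0.03 over all genes. With the lot as a block, 5 rose and 6 fell, where 28.5% of all genes were called. With all 11 libraries in 1 fit, 0 rose and 0 fell, where 0.0106% of all genes were called.
Ube2l6 measured 17.2 and 20.5 CPM in wt PI against 9.65 and 10.3 CPM in wt at 9.0 dpc (log2 fold change 0.95 ± 0.16 SE, adjusted p = 0.00502, edgeR). Ube2v1 measured 148 and 163 CPM in wt PI against 108 and 103 CPM in wt at 9.0 dpc (log2 fold change 0.58 ± 0.10 SE, adjusted p = 0.00409). Neither overlapped, and each lost its call in 1 of the 4 fits that left out a library.
Of the genes that fell, Ube2r2 measured 149 and 160 CPM in wt PI against 212 and 221 CPM in wt at 9.0 dpc (log2 fold change -0.46 ± 0.10 SE, adjusted p = 0.0143). Ube2k measured 145 and 146 CPM in wt PI against 191 and 193 CPM in wt at 9.0 dpc (log2 fold change -0.38 ± 0.10 SE, adjusted p = 0.0302), and Ube2z 41.9 and 41.3 CPM against 53.8 and 54.2 CPM (log2 fold change -0.36 ± 0.11 SE, adjusted p = 0.0497). Ube2ql1 had the largest fitted change, -1.82 ± 0.53 SE (adjusted p = 0.0433), on 1 and 15 counts in wt PI against 16 and 32 counts in wt at 9.0 dpc. All 4 lost their calls in every fit that left out 1 of the libraries compared.

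Whether the E2 genes differed between PI and other embryos to another extent under the Skp1acont label than in wt was fitted with an interaction term, in which the Skp1acont PI arm is 1 library and the other groups give its spread. No E2 gene passed, and the lowest p was that of Ube2ql1 (unadjusted p = 0.0609, adjusted p = 0.77, edgeR). With 1 library in that arm and a Skp1acont pair that differed widely, this does not show that the differences were alike.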

How the data were processed

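RNA was purified with a Qiagen RNeasy kit and libraries were made from poly(A) RNA with NEBNext reagents, per the labels' protocols. The submitters' processing notes name Trim Galore 0.6.7 and the build GRCm38 (mm10). Which aligner and counter were used, and whether counting used strand, is not stated there or in the labels. The authors deposited 1 table of whole-number counts for each gene, not normalized, with total counts of 2320599 to 11607085 per library. Of 12 labelled libraries 11 were used, and the other was not analysed here.

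Genes were filtered with filterByExpr and scaled by TMM. They were tested with edgeR 4.0.16 (quasi-likelihood, limma 3.58.1, R 4.3.3) with Benjamini-Hochberg adjustment and a threshold of 0.05, over 18837 genes in 1 fit of all groups for comparisons with Skp1a-labelled libraries and over 13126 genes in a fit of the 6 wt libraries. DESeq2 1.42.0 was an alternative. Tables were handled with pandas 2.3.3 in Python 3.11.15. GENCODE M21 gave gene positions, lengths and GC content, and the longest coding transcript was used. A limit of 3 counts corresponds to 0.258 to 1.29 CPM and covers counting error only.

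The E2 genes and the lists set beside them were chosen with earlier results of these data known. Values per library are given for called E2 genes, up to the 10 with the largest change in a comparison, and for those acting with SCF or APC/C. From each list at most the 2 called genes with the largest change in each direction are named. Other E2 genes with values, and Rpl28, were named after their values were seen.

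The labels number the libraries by lot. Deviations from the group means correlated between same-numbered wt libraries (r = 0.396 to 0.462 over 3 pairs of groups). Lot 2 was the deeper library in each, so pairing by lot and the shared difference in depth cannot be told apart. The labels do not define a lot, so the main fits have no block and the blocked counts stand beside the wt results. For other pairs r was -0.0629 to 0.228. Alternatives were other scalings, no filter, the lot as a block, the DESeq2 Wald test, another set of groups in the fit, leaving out each library and, chosen after seeing the data, adding pseudogene counts to their parents. The code was tested on simulated counts. A few genes counted in these totals are not reported here.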

Additional observations from a re-analysis of the deposited data

How the results depend on the processing

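No E2 gene called in a main fit changed direction in any alternative. In Skp1aKO over Skp1acont no gene was called with all libraries, and leaving out either Skp1acont library gave calls in opposite directions. For E2 genes not called in a main fit, directions in the alternatives of the other comparisons are not summarised here. Counts are given as higher and lower. The number of all genes called changed from fit to fit as well, so a change in these counts is not particular to the E2 genes. For Skp1aKO over Skp1acont without Skp1acont replicate 1, the median log2 fold change was 0.73 over the E2 genes and -0.08 over all genes. Without Skp1acont replicate 2 these medians were -0.36 and 0.04. For Skp1aKO over wt, against 1 higher and 14 lower, there were 2 higher with size factors, 5 higher and 9 lower with library totals, 2 higher with the Wald test and 4 higher with only the groups compared, and leaving out 1 library gave 1 to 3 higher and 0 to 21 lower. For Skp1acont over wt, against 1 and 12, there were 2 higher with size factors, 5 higher with library totals, 2 higher with the Wald test and 0 higher and 0 lower with only the groups compared, and leaving out 1 library gave 0 to 4 higher and 0 to 27 lower. In that comparison Ube2s lost its call in 3 of 11 alternatives, among them those without either wt library. For Skp1acont PI over wt PI, against 0 and 0, there were 1 higher and 4 lower with size factors, 1 higher with library totals, 1 higher and 11 lower with the Wald test and 4 higher and 20 lower with only the groups compared, and leaving out 1 library gave 0 to 4 higher and 0 to 19 lower (4 and 19 without Skp1acont replicate 2).

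Among wt libraries, 9.5 over 9.0 dpc, against 5 and 9, gave 5 lower with library totals, where 28.8% of all genes were called. With all groups in 1 fit it gave 0 higher and 1 lower (1.61% of all genes called). Without 1 library the median log2 fold change over the E2 genes ran from -0.25 to -0.09. That over all genes ran from -0.03 to 0.01. For wt PI over wt at 9.5 dpc, against 9 and 4, all groups in 1 fit gave 0 higher and 0 lower, where 0.069% of all genes were called. Without 1 library the median log2 fold change over the E2 genes ran from 0.02 to 0.18. That over all genes ran from 0.01 to 0.02. For wt PI over wt at 9.0 dpc, against 2 and 4, there were 5 higher and 0 lower with library totals, where 18.1% of all genes were called. With the Wald test there was 1 higher (8.23% of all genes called), and with no filter 2 lower (8.49%). With all groups in 1 fit there were 0 higher and 0 lower (0.0106%). Without 1 library the median log2 fold change there ran from 0.002 to 0.06 over the E2 genes. That over all genes ran from 0.03 to 0.05. The causes were not tested.

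With the lot as a block there were 5 higher and 6 lower in wt PI over wt at 9.0 dpc, 6 and 12 in wt at 9.5 over 9.0 dpc and 12 and 5 in wt PI over wt at 9.5 dpc. The block left the other counts at 0 and 0 for Skp1aKO over Skp1acont (0.00531% of all genes called) and 1 and 14 for Skp1aKO over wt (39.4%). They stayed at 1 and 12 for Skp1acont over wt (38.5%) and 0 and 0 for Skp1acont PI over wt PI (0.0902%). With 1 or 2 libraries per group, and a Skp1acont pair that differed this much, small changes were not detectable.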
